A study of Mus musculus with 5 samples.

Results

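The Hes and Hey genes encode the hairy and enhancer-of-split family of transcriptional repressors. The family was taken as a fixed list of 9 genes, Hes1, Hes2, Hes3, Hes5, Hes6, Hes7, Hey1, Hey2 and Heyl, out of 22359 protein-coding genes annotated on the mouse genome build mm9 (NCBIM37), and for each gene the ChIP-seq depth within 2 kb on either side of its transcription start site (TSS) was read from every library. Pcgf6 is a Polycomb group protein, the ring finger subunit that defines the variant Polycomb repressive complex PRC1.6, and the study asked where on the genome it is found in mouse embryonic stem cells (ESCs). The series holds 5 libraries from CCE, a mouse ESC line grown in serum medium with LIF, a cytokine that keeps ESCs undifferentiated. All cells were cross-linked with disuccinimidyl glutarate, a protein-to-protein linker, and with paraformaldehyde. Chromatin was pulled down with 1 of 2 Pcgf6 antibodies, from Santa Cruz (sc-160649, 2 replicates) or from Abcam (ab48010, 2 replicates), and 1 input library without antibody served as the background. No cells lacking Pcgf6 and no control antibody were among the libraries, and coverage of DNA does not show whether a cell type's markers were expressed, so the label of the cells could not be checked.

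Hes and Hey proteins are basic helix-loop-helix repressors with an Orange domain. Many of them are direct targets of Notch, whose cleaved intracellular part joins the DNA-binding protein Rbpj on their promoters, and they recruit Groucho (Tle) corepressors or other repressor complexes to E-box, class C and N-box sites. In ESCs and in the embryo they are known for timing differentiation: Hes1 oscillates in ESCs and neural progenitors, Hes5 and Hes3 hold neural progenitors undifferentiated, Hes7 runs the segmentation clock, Hey1, Hey2 and Heyl act in heart and vessels, and Hes6 counteracts Hes1. PRC1.6 itself contains DNA-binding proteins, among them E2F6 and the E-box proteins Max and Mga.

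The sequences below are printed from the mm9 reference genome in the direction of transcription, and no test linked them to the ChIP values. They are the 250 bases before the TSS of Hes1 (chr16:30065176-30065425, plus strand), Hes6 (chr1:93309800-93310049, minus strand) and Hey2 (chr10:30562608-30562857, minus strand), the 3 members with an unadjusted p under 0.05 against the input or between the antibodies, and 300 bases from the middle of the Hes6 peak described further on (chr1:93309101-93309400, minus strand). Capitals mark matches to the searched motifs on either strand. These were the E-box CACGTG, the class C site CACGCG, the N-box CACNAG and the Rbpj core TGGGAA. An E2F site was searched as TTCGCGC or TTGGCGC, and other forms of it were not searched. The last motif was CGNGGGCG, the core of the consensus that the study drew from its own Pcgf6 peaks.
Hes1 promoter: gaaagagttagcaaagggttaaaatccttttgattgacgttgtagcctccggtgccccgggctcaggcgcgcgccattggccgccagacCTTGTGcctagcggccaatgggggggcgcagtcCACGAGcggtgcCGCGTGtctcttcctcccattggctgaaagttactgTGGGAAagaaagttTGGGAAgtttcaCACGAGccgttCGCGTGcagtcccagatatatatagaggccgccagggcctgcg
Hes6 promoter: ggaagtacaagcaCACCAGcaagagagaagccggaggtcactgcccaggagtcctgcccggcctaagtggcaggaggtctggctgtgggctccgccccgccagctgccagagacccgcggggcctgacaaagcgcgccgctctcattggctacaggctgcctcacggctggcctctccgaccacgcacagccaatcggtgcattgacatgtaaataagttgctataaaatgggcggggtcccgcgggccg
Hey2 promoter: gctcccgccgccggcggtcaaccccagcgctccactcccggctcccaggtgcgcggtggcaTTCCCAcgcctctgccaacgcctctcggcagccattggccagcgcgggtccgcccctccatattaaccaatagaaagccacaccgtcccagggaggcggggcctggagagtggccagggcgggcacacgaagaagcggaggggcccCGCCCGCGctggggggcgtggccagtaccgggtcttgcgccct
Hes6 peak: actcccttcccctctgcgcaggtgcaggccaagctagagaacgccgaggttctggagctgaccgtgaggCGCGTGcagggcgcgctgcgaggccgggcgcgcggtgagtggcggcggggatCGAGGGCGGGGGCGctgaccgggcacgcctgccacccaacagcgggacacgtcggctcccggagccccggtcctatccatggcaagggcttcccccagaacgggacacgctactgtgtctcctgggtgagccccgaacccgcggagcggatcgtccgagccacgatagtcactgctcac
The Hes1 promoter holds 2 class C sites, 3 N-boxes and 2 Rbpj cores in these 250 bases, the Hes6 promoter 1 N-box, and the Hey2 promoter 1 Rbpj core and 1 match to the study consensus. A match describes the letters and is not a measured binding site.

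Before the values, the libraries themselves need description. The deposited signal counts how many reads, each lengthened to 300 bp, cover a base, and the reads were recovered from its steps. Recovered fragments numbered 22746027 in the input, 2289472 and 2299284 in the 2 Santa Cruz files and 2760668 and 2849378 in the 2 Abcam files, so that the ChIP libraries were much shallower than the input. The replicates of an antibody were not independent. Of the fragments in replicate 1, 88.1% (Santa Cruz) and 88.3% (Abcam) were found again in replicate 2 at a fixed shift of 1 or 15 bases, and counts in 10 kb windows differed between replicates by less than sampling noise (chi-square per degree of freedom 0.120 and 0.132, against 1.01 between the antibodies). They were therefore joined into 1 library per antibody with each fragment counted once, which left 2560464 Santa Cruz and 3156080 Abcam fragments. The antibodies' libraries also shared fragments. In replicate 1 of both antibodies, 1.10% of the Santa Cruz fragments began at the same base as an Abcam fragment, against 0.235% at starts 1 to 10 bases apart, and in replicate 2 the share was 2.58% against 0.235%. The cause was not tested, and the members' calls, sums and peaks, the promoters like Hes1 and the pathway calls are also given without the fragments found at the same place in both. As there is 1 library per antibody, intervals cover counting error only, tests compare these libraries and not conditions, and the spread between cultures is unknown.

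The depth at the 9 promoters was low and mostly near the input. Within 2 kb of the TSS the mean depth over the 9 genes ran from 0.300 to 1.59 reads per base in the Santa Cruz files, from 0.375 to 1.94 in the Abcam libraries and from 6.58 to 9.30 in the input. After scaling, as bases of depth per 1000000 bases of depth in the library, Hes6 had 8.28 and 9.22 with Santa Cruz and 8.99 and 9.07 with Abcam against 5.44 in the input, and was the 1 member whose 4 ChIP files all lay above the input by more than 1.5 times. Hes1, the oscillating repressor that is the best-studied member in ESCs, had 2.18 and 1.74 with Santa Cruz but 8.24 and 7.72 with Abcam, against 5.44 in the input. The antibodies thus fell on opposite sides of the input at Hes1. Hey2, a regulator of heart development, showed the other order, with 6.99 and 6.96 with Santa Cruz and 3.30 and 4.23 with Abcam against 3.85 in the input. Hes3 had 5.26 and 4.80 with Santa Cruz and 2.17 and 1.75 with Abcam against 4.12 in the input. At Hes3 too the antibodies stood on opposite sides of the input.

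The other members lay closer to the input. Hes2, a less studied member, had 3.93 and 4.0 with Santa Cruz and 4.92 and 5.15 with Abcam against 4.73 in the input. Hes5, a Notch target in neural progenitors, had 4.38 and 5.22 with Santa Cruz and 3.85 and 3.03 with Abcam against 4.73. The Abcam files lay below the input there, and the Santa Cruz files on either side of it. Hes7, the segmentation clock repressor, had 3.30 and 3.91 with Santa Cruz and 3.62 and 3.18 with Abcam against 4.79 in the input. Hey1 had 2.13 and 2.67 with Santa Cruz and 3.47 and 3.36 with Abcam against 4.23. Heyl had 3.40 and 3.82 with Santa Cruz and 3.26 and 3.16 with Abcam against 3.97. At these last 3 genes all 4 ChIP files were below the input. In the plot of scaled depth by library the 2 symbols of an antibody stay close together, as they hold largely the same fragments.

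**Figure D1:**
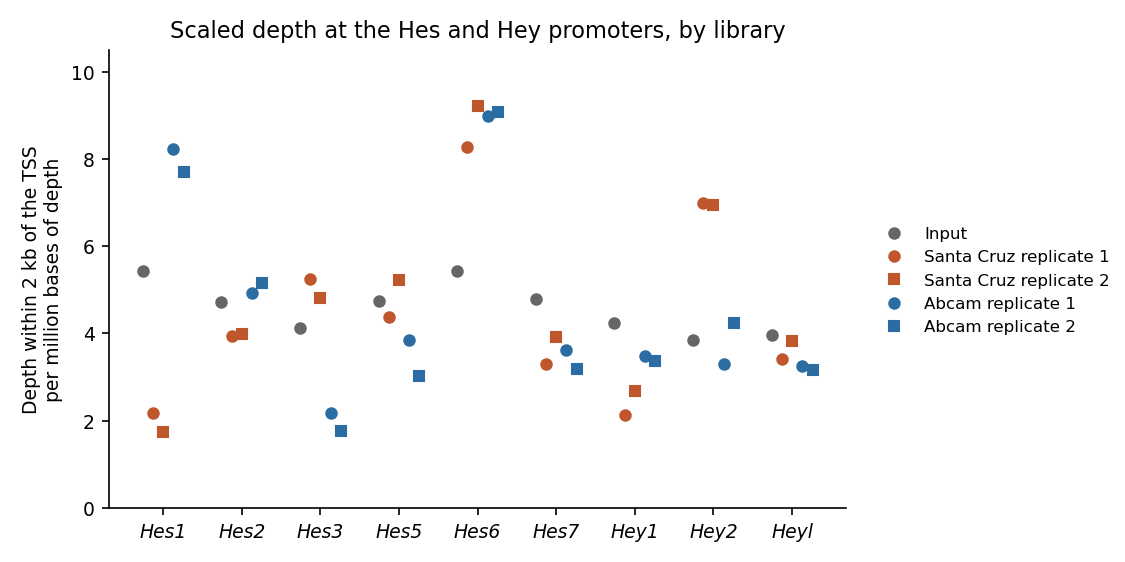
Depth within 2 kb of the TSS of each Hes and Hey gene, as bases of depth per 1000000 bases of depth in that library, with 1 symbol per library. Hes6 lies between 8.28 and 9.22 in the 4 ChIP libraries against 5.44 in the input, while Hes1 lies at 1.74 and 2.18 with Santa Cruz and at 7.72 and 8.24 with Abcam.

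To set these depths against counting error, joined fragments whose middle lay within 2 kb of the TSS were compared with the input at every promoter. The exact binomial test was one-sided, for more ChIP than input, and p-values were adjusted over all 22359 promoters after Benjamini and Hochberg. With Santa Cruz 0 of the 9 members passed an adjusted p of 0.05, against 0.617% of all promoters, and 2 members, Hes6 and Hey2, had an unadjusted p under 0.05, against 5.01% of all promoters. With Abcam 0 of 9 passed against 1.08% of all promoters, and 1 member, Hes6, had an unadjusted p under 0.05, against 6.19%. Passing would have taken 24 to 31 Santa Cruz fragments at the members, a ratio to input of 2.23 to 2.54, and 27 to 35 Abcam fragments, a ratio of 2.05 to 2.32. A smaller observed ratio over these 4 kb could not pass at this depth, so a weaker enrichment could go unseen.

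Hes6 had 23 Santa Cruz, 26 Abcam and 117 input fragments. Its scaled ratio to input was 1.71 with Santa Cruz (95% Clopper-Pearson interval 1.04 to 2.69, exact binomial p = 0.0170, adjusted p = 0.672) and 1.57 with Abcam (0.982 to 2.41, exact binomial p = 0.0297, adjusted p = 0.651). Of all promoters, 89.4% had a lower ratio with Santa Cruz and 86.0% with Abcam. Hey2 had 18 Santa Cruz, 12 Abcam and 82 input fragments, which gave 1.91 with Santa Cruz (1.08 to 3.20, exact binomial p = 0.0136, adjusted p = 0.616) and 1.03 with Abcam (0.512 to 1.90). Hey2 was the highest member with Santa Cruz, and Hes6 with Abcam. Hes1 had 5 Santa Cruz, 24 Abcam and 120 input fragments, the lowest ratio of the family with Santa Cruz (0.362, 0.115 to 0.868) and the next highest after Hes6 with Abcam (1.41, 0.869 to 2.20). At Hes1 7.43% of all promoters were lower with Santa Cruz, and 80.6% were lower with Abcam.

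The remaining 6 members had intervals that included 1 with both antibodies. Hes3 had 12 Santa Cruz, 7 Abcam and 94 input fragments (ratios 1.11 and 0.525), and Hes5 had 12, 12 and 107 (0.974 and 0.790). Hes2 had 9 Santa Cruz, 16 Abcam and 105 input fragments (0.745 and 1.07), and Hes7 had 10, 11 and 102 (0.852 and 0.760). Hey1 had 6 Santa Cruz, 11 Abcam and 93 input fragments (0.560 and 0.834), and Heyl had 9, 10 and 89 (0.878 and 0.792). Ordered by ratio, the members ran Hey2, Hes6, Hes3, Hes5, Heyl, Hes7, Hes2, Hey1 and Hes1 with Santa Cruz, and Hes6, Hes1, Hes2, Hey2, Hey1, Heyl, Hes5, Hes7 and Hes3 with Abcam. In each order the intervals of every pair of neighbours overlapped.

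**Figure D2:**
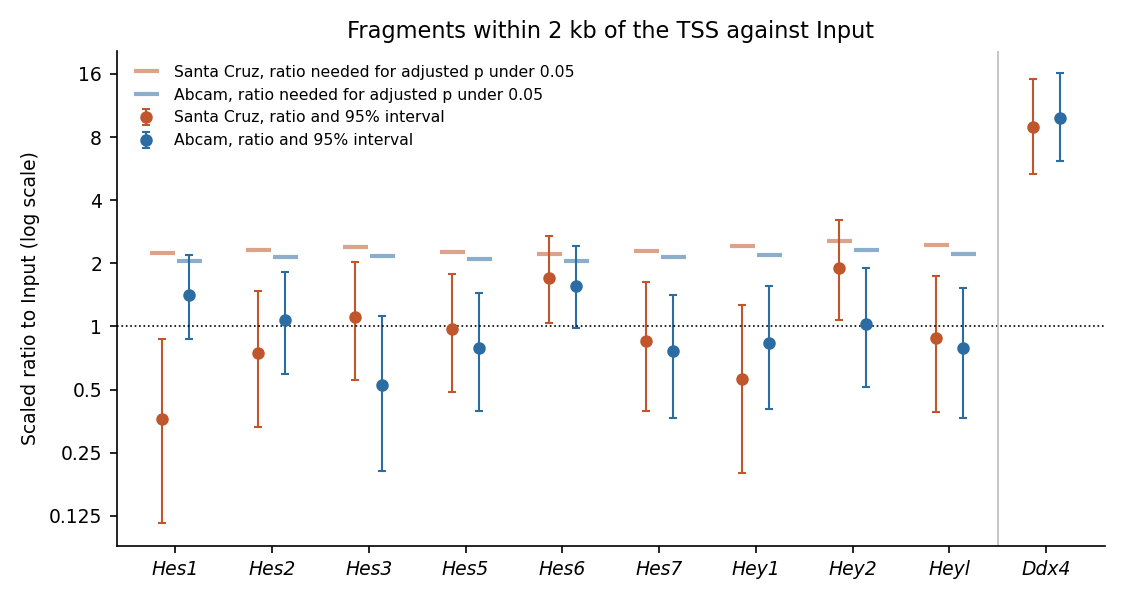
Scaled ratio of ChIP to input fragments within 2 kb of the TSS, on a log scale, with 95% Clopper-Pearson intervals that cover counting error, for the 9 Hes and Hey genes and for Ddx4. The flat dashes mark the ratio a member would have needed to pass the adjusted test, between 2.05 and 2.54, and the points of the 9 genes all lie under their dashes while Ddx4 lies at 8.96 and 9.91.

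Ddx4, a germ cell RNA helicase gene named as a reference promoter because it is strongly enriched in these libraries, had 33 Santa Cruz, 45 Abcam and 32 input fragments. Its Santa Cruz ratio was 8.96 (5.34 to 15.0) and its Abcam ratio 9.91 (6.16 to 16.1). As it was chosen for its enrichment these values are a description, and no member came near that level. Summed over the 9 members, 104 Santa Cruz and 129 Abcam fragments stood against 909 in the input. The Santa Cruz ratio was 0.994 (0.803 to 1.22) and the Abcam ratio 1.0 (0.825 to 1.2). All promoters summed to 0.942 with Santa Cruz and 0.990 with Abcam, inside the members' intervals. The members' median ratio was 0.878 with Santa Cruz, where the median of all promoters was 0.899, and 0.834 with Abcam, where it was 0.945. A ratio over 1 was found at 3 of 9 members with Santa Cruz, against 41.1% of all promoters, and at 4 of 9 with Abcam, against 44.9%. The 6 Hes genes together had a Santa Cruz ratio of 0.956 (0.738 to 1.22) and an Abcam ratio of 1.05 (0.838 to 1.30), and the 3 Hey genes 1.09 (0.732 to 1.56) and 0.881 (0.594 to 1.27). Neither branch of the family differed from the input beyond counting error within 2 kb. Within 10 kb the 9 members summed to 0.875 (0.784 to 0.974) with Santa Cruz, and the Abcam sum was 0.875 (0.792 to 0.965), both below the input, where all promoters summed to 0.932 and 0.946 and lay inside the members' intervals. The summed ratios were 0.985 and 0.994 without the fragments found at the same place with both antibodies.

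The antibodies were then set against each other at each promoter by a two-sided exact binomial test, adjusted over all promoters. None of the 9 members passed (0 of 9), against 0.00894% of all promoters. Hes1 was the 1 member with an unadjusted p under 0.05, against 2.39% of all promoters. Its Abcam signal was 3.89 times its Santa Cruz signal (1.46 to 13.1, exact binomial p = 0.00358, adjusted p = 1). With every fragment counted as deposited, so that most fragments enter more than once, the ratio at Hes1 was 4.09 and the adjusted p 0.0195, but that count treats copies of 1 fragment as separate observations. The ratio at Hes1 depended on the window, at 7.30 (1.01 to 320) within 1 kb, 2.52 (1.16 to 6.08) within 3 kb and 1.71 (1.08 to 2.75) within 10 kb. Without the fragments found with both antibodies Hes1 had 3 Santa Cruz and 22 Abcam fragments, a ratio of 5.90 (1.77 to 30.8). The adjusted p was 1 in each of these 4 cases. The ratio was higher with Abcam at 3 of the 9 members, against 53.2% of all promoters.

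By the likeness of the pair of log2 ratios, with a pseudocount of 1 fragment, the promoters nearest to Hes1 among 15397 with at least 50 input fragments were Gm1631 (2 Santa Cruz, 11 Abcam and 55 input fragments), Gm10654 (3, 15 and 75) and Pdxk (3, 15 and 75). Many others were not far off, as 3456 promoters, 22.4%, had both ratios inside the Hes1 intervals. A further count took the extremes, and 33 other promoters, 0.214%, were as low as Hes1 with Santa Cruz and as high with Abcam. Without the fragments found with both antibodies these counts were 2368 (15.4%) and 14 (0.0909%). The counts of extremes were made after the values of Hes1 were seen.

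Splitting the 4 kb around each TSS into 1 kb parts showed where the fragments lay. At Hes6 the first kb downstream of the TSS held 14 Santa Cruz, 18 Abcam and 32 input fragments. There the Santa Cruz ratio was 3.80 (1.87 to 7.33) and the Abcam ratio 3.96 (2.10 to 7.28). The next kb downstream held 0 Santa Cruz and 2 Abcam fragments against 29 in the input, and the kb upstream of the TSS held 4 and 3 against 30. The excess at Hes6 was thus in the first kb of the gene with both antibodies. Among 17550 promoters with at least 10 input fragments in that first kb, 99.1% had a lower ratio with Santa Cruz and 99.2% with Abcam, and 76 other promoters were at or above Hes6 with both. Without the fragments found with both antibodies the first kb held 13 Santa Cruz and 17 Abcam fragments, ratios were 3.68 (1.77 to 7.20) and 3.87 (2.02 to 7.18), and 57 other promoters were at or above Hes6 with both. The comparison with other promoters was chosen after the value at Hes6 was seen. At Hey2 the first kb downstream held 8 Santa Cruz, 4 Abcam and 24 input fragments, ratios of 2.90 (1.12 to 6.66) and 1.17 (0.296 to 3.42).

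At Hes1 the Abcam fragments lay upstream. From 2 kb to 1 kb before the TSS there were 12 Abcam, 2 Santa Cruz and 27 input fragments, a ratio of 3.13 (1.45 to 6.39) with Abcam and 0.643 (0.0742 to 2.56) with Santa Cruz. The first kb downstream of Hes1 held 0 Santa Cruz fragments, and 3 Abcam fragments against 23 in the input. The fullest 600 bp window with Abcam was centred 1276 bp upstream of the TSS, with 9 fragments against 2.33 expected, which did not reach the peak cutoff. An annotated non-coding transcript of Hes1 starts 956 bp upstream of the main TSS. The profiles of depth around all start sites show the same picture, with isolated rises of a few fragments at most members.

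**Figure D3:**
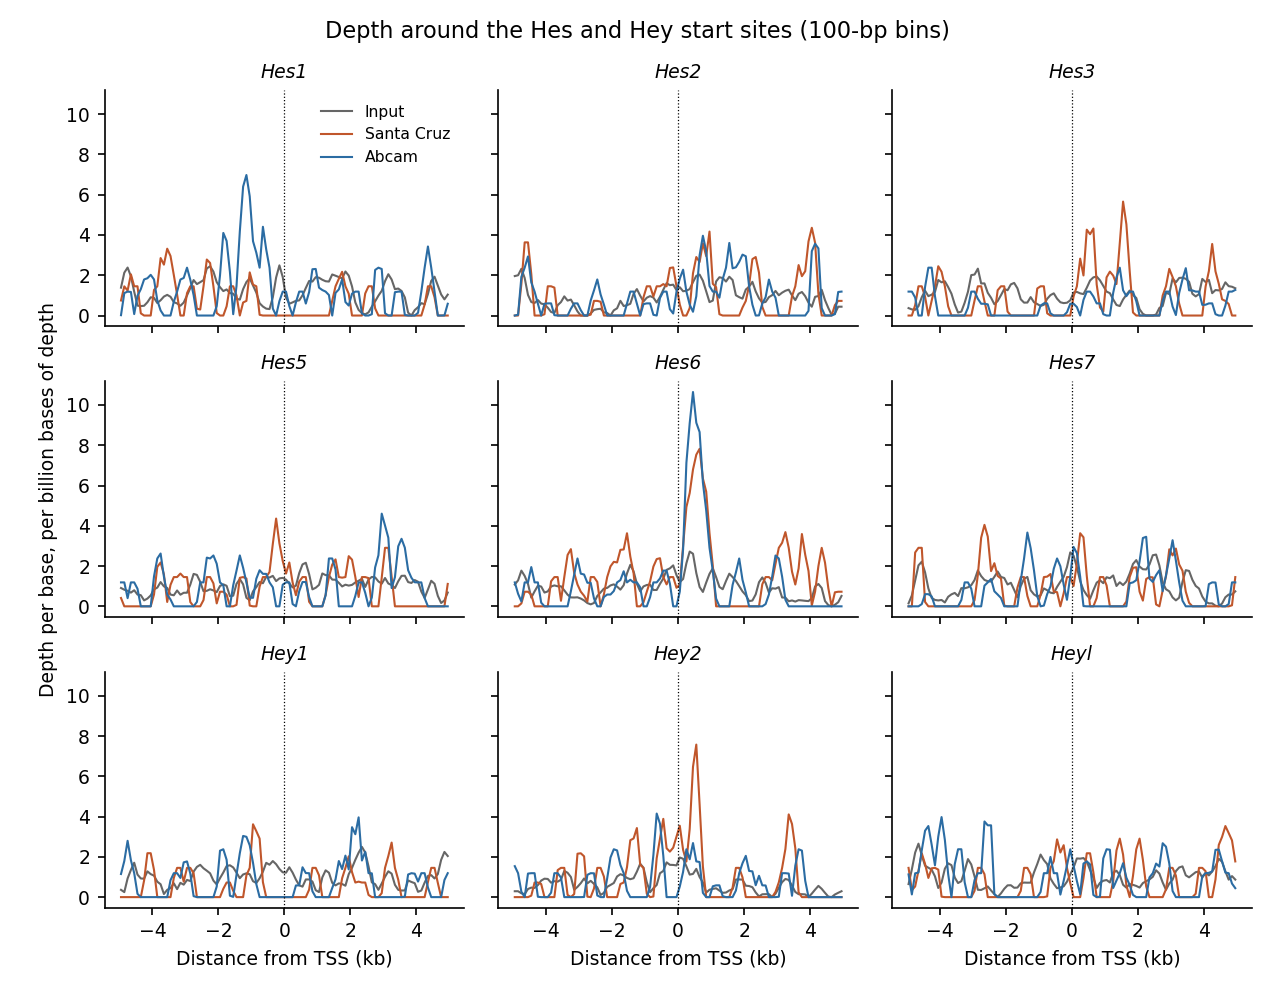
Depth in 100 bp bins within 5 kb of each TSS, per 1000000000 bases of depth, for the input and for the mean of the 2 files of each antibody, with distances in the direction of transcription. Hes6 has a rise with both antibodies just downstream of its TSS, and Hey2 has one with Santa Cruz. Hes1 has one with Abcam, highest in the bin centred 1150 bp upstream.

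Peaks were called in 600 bp windows by a Poisson test against the local input at p under 1e-05, which gave 698 Santa Cruz and 971 Abcam peaks. A peak lay within 10 kb of the TSS at 1 of 9 members with Santa Cruz, against 2% of all promoters, and at 1 of 9 with Abcam, against 3.25%. That member was Hes6 with both antibodies. For the other 8 genes the nearest peak lay at least 138212 bp away, the distance at Hey1 with Santa Cruz. The paper, by contrast, names Hes1 among genes strongly bound by Pcgf6 and shows its promoter as occupied. It called peaks with the program MACS, which was not rerun here, and the cause of the difference was not tested. Hes6 lies on chromosome 1 on the minus strand with its TSS at 93309799. The Santa Cruz peak there (chr1:93308851-93309650) had 11 fragments in its best window against 1.84 expected (exact Poisson p = 3.78e-06), and the Abcam peak (chr1:93308801-93309750) had 15 against 2.28 (exact Poisson p = 2.15e-08). Without the fragments found with both antibodies both calls remained, with 11 fragments against 1.76 for Santa Cruz and 14 against 2.21 for Abcam. The Santa Cruz peak was called at 1e-05 but not at 1e-06, so it sat close to the cutoff.

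The 800 bp common to both peaks ran from 149 to 948 bp downstream of the Hes6 TSS. They cover 395 exonic bases in exons 1 to 4, all of them coding, and 405 intronic bases, with 0 bases of UTR. The 800 bp held 14 Santa Cruz, 17 Abcam and 27 input fragments, a Santa Cruz ratio of 4.50 (2.18 to 8.90) and an Abcam ratio of 4.44 (2.27 to 8.44). By library, the scaled depth over them was 3.33 and 3.80 times the input in the Santa Cruz files and 4.45 and 4.31 times in the Abcam files. With the fragments found with both antibodies left out there were 13 and 16 fragments, and the ratios were 4.36 (2.06 to 8.74) and 4.32 (2.17 to 8.31). These windows were picked as the fullest of the region, so the ratios describe the peak and are not a separate test of it.

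**Figure D4:**
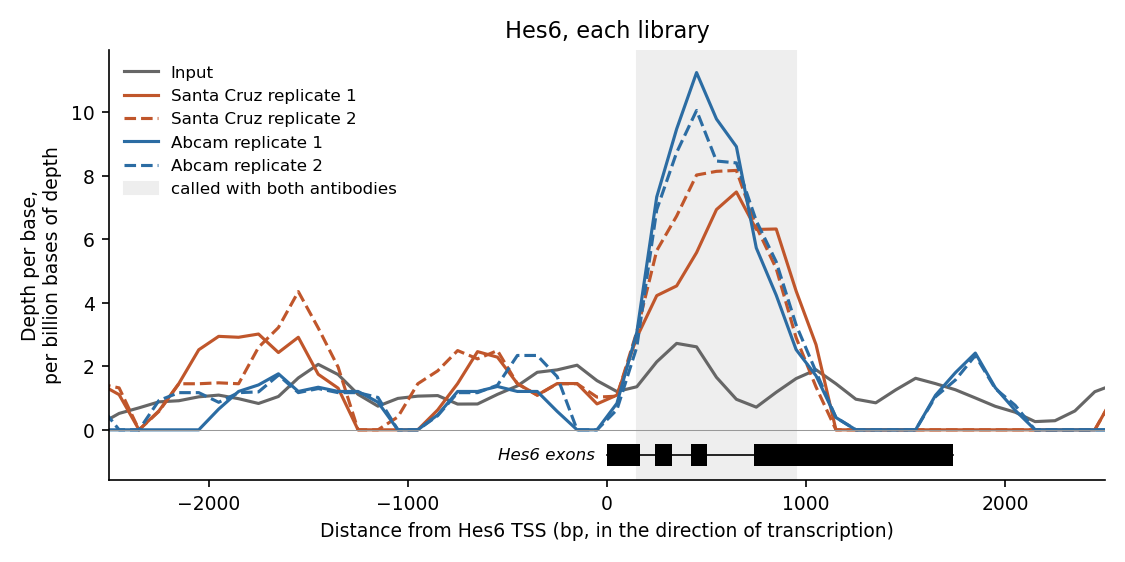
Depth in 100 bp bins around the Hes6 TSS in each of the 5 libraries, per 1000000000 bases of depth, with the exons drawn as black boxes and the 800 bp called with both antibodies in grey. All 4 ChIP libraries rise between 149 and 948 bp downstream of the TSS, where their scaled depth is 3.33 to 4.45 times that of the input.

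The printed Hes6 peak sequence holds 1 class C site and 2 overlapping matches to the study consensus, 520 and 526 bp downstream of the TSS. The whole 800 bp hold also 1 E-box, 825 bp downstream, 1 N-box and 2 Rbpj cores. In the same stretch downstream of all promoters the study consensus was found at 16.5%, the E-box at 11%, the class C site at 17%, the N-box at 77.0% and the Rbpj core at 52.9%. The Hes6 stretch had a GC content of 67.5%, against a median of 52.2% in the same stretch of all genes. The consensus came from peaks of these libraries and is no independent sign of binding.

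The promoters of the family, taken as 300 bp from 250 before the TSS to 50 after it, differed in composition. Hey1 had a GC content of 75.0%, Hes5 and Hey2 72.7%, Hes6 65.0%, Hes2 64.0%, Hes7 60.0%, Hes1 57.7%, Heyl 55.3% and Hes3 48.0%, against a median of 55.3% for all promoters. Of the 9, 6 were CpG-rich, against 38.1% of all promoters, with at least 55% GC and an observed over expected CpG of at least 0.6, and the other 3 were Hes3, Hes7 and Heyl. The class C site, which Hes and Hey proteins bind, was found in 4 members (Hes1, Hes2, Hes7 and Hey1) and in 11.7% of all promoters. The N-box was found in 3 members (Hes1, Hes6 and Hes7) and in 41.5% of all promoters. The Rbpj core, the sequence through which Notch acts, was found in 6 members (Hes1, Hes3, Hes5, Hes7, Hey1 and Hey2) and in 24.1% of all promoters. The E-box and the E2F site, searched for the DNA-binding partners of Pcgf6, were found in fewer members. The E-box of Max and Mga was found in 0 of 9 members and in 7.70% of all promoters. The E2F site, in the searched forms, was found in Hes5 and Hey1 and in 4.71% of all promoters. The study consensus was found in Hey1 and Hey2 and in 13.7% of all promoters. Hey1, which held both the searched E2F site and the consensus, had ratios of 0.560 and 0.834.

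Several members have more than 1 annotated start. At Hes6 an upstream start 816 bp before the main TSS gave a Santa Cruz ratio of 2.03 (1.26 to 3.16) and an Abcam ratio of 1.78 (1.12 to 2.73) over its own 2 kb on either side. That upstream Hes6 start has no protein-coding transcript. Its window takes in the whole peak downstream of the main TSS, so the same fragments count again. The kb just before the main Hes6 TSS held 4 Santa Cruz and 3 Abcam fragments against 30 in the input. At Hes1 the 4 annotated starts gave Santa Cruz ratios of 0.331 to 0.461, and the Abcam ratios were 1.01 to 1.41. At Hes3, whose other protein-coding start lies 3602 bp downstream, the ratios there were 0.766 and 0.760. Another protein-coding gene starts within 10 kb of Hes2 (Espn), Hes3 (Icmt), Hes5 (Pank4) and Hes7 (Aloxe3), and the 2 kb windows of Hes2, Hes5 and Hes7 overlap a pseudogene or non-coding gene. No other annotated gene starts within 10 kb of Hes1, Hes6, Hey1, Hey2 or Heyl.

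Genes of the Notch pathway, Groucho corepressors, and other bHLH-Orange and Id genes were read in the same way. Their 4 lists together hold 39 genes, all of which were found in the annotation. None of the 9 Notch receptors and ligands passed the adjusted test with Santa Cruz or with Abcam (0 of 9 each). With Santa Cruz they ran from 0.296 at Notch4 to 1.47 at the ligand Jag2, and with Abcam from 0.561 at the ligand Dll3 to 1.96 at the ligand Jag1, which had 27 Abcam fragments against 97 in the input (1.23 to 3.03, exact binomial adjusted p = 0.164). Of the 17 genes for Notch processing and transcription 0 passed with either antibody. The highest with Santa Cruz was Rbpj itself at 1.85, and with Abcam they ran from 0.378 at Ncstn, a subunit of gamma-secretase, to 1.78 at the coactivator Maml2. The median ratios of these 2 lists were 0.931 and 0.905 with Santa Cruz and 1.06 and 1.07 with Abcam, against 0.899 and 0.945 for all promoters.

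Of the 6 Groucho corepressors 0 passed with either antibody. Tle1 was the highest and Tle2 the lowest with both, at 1.84 and 0.602 for Santa Cruz. The Abcam ratios were 1.71 at Tle1 and 0.0698 at Tle2, where Tle2 had 1 fragment against 101 in the input (0.00175 to 0.398). Among 7 other bHLH-Orange and Id genes 1 passed, Bhlhe41, a relative of the family that represses clock genes. It had 33 Abcam fragments against 105 in the input, a ratio of 2.21 (1.45 to 3.30, exact binomial adjusted p = 0.0184), and 17 Santa Cruz fragments, a ratio of 1.41 (0.790 to 2.36). In that list Helt was highest with Santa Cruz at 1.89, Id4 lowest with Santa Cruz at 0.841, and Id1 lowest with Abcam at 0.551. The lists thus held 0 of 39 promoters past the threshold with Santa Cruz and 1 of 39 with Abcam, against 0.617% and 1.08% of all promoters. An unadjusted exact binomial p under 0.05 was found at 4 of 39 with Santa Cruz (Maml2, Rbpj, Tle1 and Helt) and at 4 of 39 with Abcam (Jag1, Maml2, Tle1 and Bhlhe41), against 5.01% and 6.19% of all promoters. Without the fragments found with both antibodies the adjusted test was passed by 0 and 1 of 39, and the unadjusted counts were 2 and 2.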

How the data were processed

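ChIP-seq coverage of 1 input library, 2 Santa Cruz and 2 Abcam replicates was analysed. The deposited signal is the coverage that the authors made from reads extended to 300 bp on mm9, 1 file per library, without scaling or subtraction of input. The submitters' processing notes name Bowtie, and the treatment of duplicate reads is not given in the sources used here. The design assumed fragments, so they were recovered from the steps of the depth (numba 0.67.0 under Python 3.11.15, with scipy 1.17.1 for the tests, numpy 2.4.6 and pandas 2.3.3), a step tested on simulated data. Depth per library sets the precision, and strand is lost.

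The TSS is that shared by most protein-coding transcripts (GENCODE M1). One fragment was kept per position, ratios were scaled by library totals, and intervals are Clopper-Pearson at 95%. Promoters were tested by exact binomial tests with Benjamini-Hochberg adjustment at 0.05. Peaks used 600 bp windows every 50 bp and the largest input rate of the genome, 5 kb or 10 kb. Named were all members, in the pathway lists the genes past the threshold and the extremes with each antibody, Ddx4, and the 3 promoters nearest Hes1, besides genes mentioned for position only. The lowest Santa Cruz value of 1 pathway list is not reported here. The members and lists were chosen with earlier results of these data known. Alternatives varied the window, the fragment counting, the scaling, the TSS, the peak cutoff and distance, and the replicates. Figures were drawn with matplotlib 3.10.9.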

Additional observations from a re-analysis of the deposited data

How the results depend on the processing

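The counts of members past the adjusted threshold against input stayed at 0 with both antibodies under every alternative run (windows of 1, 3 and 10 kb, all fragments as deposited, scaling by the median of 10 kb windows, the TSS farthest upstream, each replicate left out, and, chosen after seeing the data, without fragments at the same place in the other antibody). At every member the protein-coding TSS farthest upstream is the main TSS, so that alternative could not change a member's ratio. The summed Santa Cruz ratio was 1.24 (0.942 to 1.60) within 1 kb. In that window Hes6 came nearer to the threshold than in the main one. Its Santa Cruz ratio was 2.52 (1.40 to 4.32, exact binomial adjusted p = 0.138). Its Abcam ratio was 2.39 (1.38 to 3.97, exact binomial adjusted p = 0.0800). Within 10 kb both summed ratios were 0.875, with intervals below 1. All fragments as deposited gave 1 member that differed between the antibodies, Hes1, at 4.09. At a peak cutoff of 1e-06 there were 0 members with a Santa Cruz peak. Leaving out a replicate gave summed ratios of 0.976 to 1.04 (Santa Cruz) and 0.991 to 1.03 (Abcam), 0 members called, and 1 member with a peak in each case.

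Of 261 ratios of single members under alternatives, 242 kept their direction and side of the threshold. The 242 include the ratios at the TSS farthest upstream, which repeat the main ratios and could not differ. A further 18 crossed 1, all with intervals that include 1. Within 1 kb these were Santa Cruz Hes2 (1.18), Hes5 (1.07) and Hes7 (1.24), Abcam Hes2 (0.956), and Abcam over Santa Cruz at Hes2 (0.811) and Hey1 (0.541). Within 3 kb they were Abcam Heyl (1.07) and Abcam over Santa Cruz at Heyl (1.25). Within 10 kb they were Santa Cruz Hes3 (0.777), Abcam Hes1 (0.941), Hes2 (0.848) and Heyl (1.0), and Abcam over Santa Cruz at Heyl (1.23). With all fragments as deposited they were Santa Cruz Hes5 (1.0), Abcam Hey2 (0.990) and Abcam over Santa Cruz at Hes6 (1.04). Leaving out a replicate, Santa Cruz Hes5 ran from 0.911 to 1.09 and Abcam Hey2 from 0.887 to 1.15. The cause was not tested.

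Over all promoters, counting all fragments as deposited moved the calls from 138 to 381 (Santa Cruz), from 242 to 630 (Abcam) and from 2 to 140 (antibody difference), since copies of a fragment then count again. Within 10 kb there were 85 Santa Cruz calls and 163 Abcam calls, and without fragments at the same place in the other antibody 87 and 184. Within 1 kb the antibody difference had 1 call. Santa Cruz peaks lay near 751 promoters at a cutoff of 1e-04 and near 287 at 1e-06, against 448, and Abcam peaks near 1192 at 1e-04, against 727. No paired analysis was possible because the replicates of an antibody hold largely the same fragments, so a replicate number marks no independent pair. With 5 to 26 ChIP fragments at a member, depth limits what could be seen, and a ratio under about 2 cannot pass the adjusted test.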
